A study of Mus musculus with 2 samples.

Results

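The transcripts described here encode 9 transcription factors of the myeloid lineages, Spi1, Cebpa, Cebpe, Gfi1, Irf8, Klf4, Irf4, Zbtb46 and Cebpb, followed in mouse bone marrow cultures from day 0 to day 7 with and without heme. They were chosen by name as factors of the granulocyte, monocyte, macrophage and dendritic cell (DC) branches, and all 9 of them were among the 26124 genes of both matrices. Lin- progenitor cells from C57BL/6 mice 8 to 10 weeks old were grown with granulocyte-macrophage colony-stimulating factor (GM-CSF, 20 ng/ml), a cytokine that yields neutrophils, macrophages and DCs in 1 dish. Albumin alone (control) or heme-albumin at 300 µM was added on day 3, and cells of 5 harvest days (0, 3, 4, 5 and 7) carried hashtag antibodies and were pooled into 1 single-cell 3′ library per treatment. Each of the 10 combinations of library and hashtag day is called a culture below.

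There was 1 library per treatment, so no comparison has a replicate check, no p-value is given, and a treatment effect cannot be told apart from a difference between the 2 libraries. The cultures of days 0 and 3 preceded or coincided with the addition of heme, and their differences between the libraries serve as the background for days 4, 5 and 7. Levels are unique molecular identifiers (UMIs) scaled to the total UMIs of all genes (CPM, the usual count per 1000000), summed over the cells of a culture, with 95% Poisson intervals that cover counting error only. After the filters, 10870 control and 10095 heme cells remained, 1509 to 2856 per culture, with 14654253 to 36128668 UMIs per culture. Of the barcodes, 112 occurred in both libraries. The upper limit on detected genes removed more heme than control cells on every day. Without it, day 3 had 3351 heme cells in place of 2176, and 2089 control cells in place of 1908. Day 7 had 2772 heme cells in place of 2016, and 3008 control cells in place of 2856. The libraries already differed on day 0: erythroid-like cells were 500 of 1613 control cells and 212 of 1509 heme cells, and the median ratio of heme to control over all genes with enough UMIs was 1.38 (10354 genes). Transcripts of late cells (Ccl17, Ccl22, Mmp12 and Gpnmb, and Marco in the heme library) were read on day 0 at 1.43% to 3.54% of their library mean in the control and at 6.52% to 15.1% in the heme library, which gauges RNA that was free in the suspension or tagged to the wrong day.

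Blood cell fate is set by combinations of such factors rather than by single ones. PU.1 and C/EBPα open the myeloid programme, high C/EBPε and GFI1 go with granulocytes, IRF8 and KLF4 with monocytes, and IRF4, IRF8 and ZBTB46 with the subsets of classical DCs. Several of these factors restrain each other, for example GFI1 and the monocyte programme, so that a falling transcript of one branch often accompanies the growth of another.

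The promoters of the members that differed 2-fold or more between heme and control on day 7, as far as the reference tables hold them, are shown because these members moved in opposite directions. They are the 250 bases before the start in the RefSeq tables (GRCm38.p6), 5′ to 3′ on the gene's own strand. Capitals mark matches on either strand to 1 of 6 short motifs, TTGCNNAA (C/EBP), GAGGAA (PU.1 and other ETS factors), GGAANNGAA (ETS with IRF), GAAANNGAA (IRF), TGACNNNGC (antioxidant response element) and AAATCA (GFI1 core).
Irf8, chr8:120736108-120736357, plus strand: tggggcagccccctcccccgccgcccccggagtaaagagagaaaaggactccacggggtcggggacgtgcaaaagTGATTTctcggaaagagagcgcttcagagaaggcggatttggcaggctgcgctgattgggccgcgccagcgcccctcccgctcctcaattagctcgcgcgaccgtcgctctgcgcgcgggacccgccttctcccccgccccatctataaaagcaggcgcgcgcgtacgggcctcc
Irf4, chr13:30748983-30749232, plus strand: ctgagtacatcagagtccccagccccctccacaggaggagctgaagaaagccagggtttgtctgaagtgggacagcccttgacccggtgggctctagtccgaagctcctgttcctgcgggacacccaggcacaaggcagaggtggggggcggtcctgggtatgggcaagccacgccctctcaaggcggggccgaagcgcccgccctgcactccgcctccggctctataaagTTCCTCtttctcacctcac
Zbtb46, chr2:181424389-181424638, minus strand: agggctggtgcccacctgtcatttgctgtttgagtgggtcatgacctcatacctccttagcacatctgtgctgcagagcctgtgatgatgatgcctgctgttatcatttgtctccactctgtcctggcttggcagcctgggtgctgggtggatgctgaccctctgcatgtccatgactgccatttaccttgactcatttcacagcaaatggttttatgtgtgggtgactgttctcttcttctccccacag
Klf4, chr4:55532476-55532725, minus strand: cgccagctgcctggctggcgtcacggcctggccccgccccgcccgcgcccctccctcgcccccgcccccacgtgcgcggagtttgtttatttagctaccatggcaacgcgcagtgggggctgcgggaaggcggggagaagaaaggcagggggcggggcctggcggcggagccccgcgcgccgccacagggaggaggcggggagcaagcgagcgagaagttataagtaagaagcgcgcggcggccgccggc
Gfi1, chr5:107725806-107726055, minus strand: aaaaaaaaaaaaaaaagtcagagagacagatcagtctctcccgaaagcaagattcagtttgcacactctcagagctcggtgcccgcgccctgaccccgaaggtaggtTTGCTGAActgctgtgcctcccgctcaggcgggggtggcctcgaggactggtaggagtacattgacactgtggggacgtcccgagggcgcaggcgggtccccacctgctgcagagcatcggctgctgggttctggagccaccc
Irf8 held 1 match to the GFI1 core, read on the other strand 175 to 170 bases before the start (TGATTT), a motif found in 12.4% of the 32851 promoters of the tables. Irf4 held 1 match to GAGGAA at 19 to 14 bases before its start (23.3% of promoters), and Gfi1 held 1 match to the C/EBP motif, TTGCTGAA, at 143 to 136 bases before its start (9.56% of promoters). Irf8 and Gfi1 have a further promoter in the tables, not printed. That of Irf8 held a match to the antioxidant response element, TGACTCCGC, at 25 to 17 bases before its start (10.2% of promoters) and another to the GFI1 core, and that of Gfi1 held none. The windows of Zbtb46 and Klf4, and those of Cebpa and Cebpb, held none of the 6 motifs, and GC content ran from 51.6% in Zbtb46 to 81.6% in Cebpb. The Zbtb46 window lies inside the annotated gene, which starts at 181459426 on the minus strand. Most of the printed Gfi1 window, with its C/EBP match, also lies inside the annotated gene, which starts at 107726036 on the minus strand. The further promoters of Irf8 and Gfi1 lie inside their annotated genes too. Letters inside a gene therefore do not describe the bases before its annotated start. These matches describe the letters of short windows and were not tested for use.

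Spi1 (chr2:91082390-91115756, plus strand, GRCm38) encodes PU.1, the ETS factor that all myeloid branches need. Its level over days 0, 3, 4, 5 and 7 was 97.7, 441, 463, 435 and 352 CPM in the control cultures and 145, 412, 384, 377 and 331 CPM in the heme cultures. Spi1 thus rose early and stayed high in both libraries, 4.51-fold from day 0 to day 3 in the control and 2.84-fold in the heme library. A culture sum cannot tell fewer cells with a transcript from less transcript per cell, so each cell was also thinned to 4000 UMIs: Spi1 was then detected in 31.1% of control cells on day 0 (95% exact binomial interval 28.6% to 33.7%) and in 82.1% on day 3 (80.3% to 83.8%). The erythroid-like cells, which should lack Spi1, held Spi1 in 25 of 510 control and 30 of 231 heme cells at the same depth. With heme Spi1 was at 0.829, 0.867 and 0.940 of the control on days 4, 5 and 7. These ratios were near the 0.935 of day 3 and below the 1.48 of day 0.

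Cebpa (chr7:35119293-35121928, plus strand) encodes C/EBPα, which progenitors need to enter the granulocyte-monocyte path. It moved least of the members, between 23.0 and 30.2 CPM in the control and between 26.3 and 45.0 CPM in the heme library. Its highest level was on day 3 in the control and on day 0 in the heme library, and other processing put the peak on other days, so no order was read from it. The antisense gene Gm45091 overlaps its first part.

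The granulocyte factors also rose between day 0 and day 3. Cebpe (chr14:54710360-54712174, minus strand) encodes C/EBPε, which drives the secondary granule genes of maturing neutrophils. Its level in the control cultures was 18.9, 348, 299, 114 and 29.6 CPM on days 0, 3, 4, 5 and 7, and in the heme cultures 28.3, 377, 276, 85.8 and 64.0 CPM. It was the member with the steepest entry, 18.4-fold from day 0 to day 3 in the control and 13.3-fold in the heme library, and fell 2-fold or more from day 4 to day 5 in both (to 0.382 and 0.311 of the level). The heme level on day 0 did not exceed the 29.6 CPM that the highest free RNA gauge would give, so the fold of that library is uncertain. At 4000 UMIs, Cebpe was detected in 51.0% of control cells on day 3 (48.7% to 53.3%) and in 9.45% on day 7 (8.35% to 10.6%), against 10 of 510 control erythroid-like cells.

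Gfi1 (chr5:107716657-107726036, minus strand) encodes a zinc finger repressor that favours granulocytes over monocytes. Its level was low throughout, 6.19, 22.1, 11.5, 5.28 and 0.941 CPM in the control cultures and 17.3, 31.5, 15.3, 5.46 and 6.04 CPM in the heme cultures. It peaked on day 3 in both libraries, and after day 5 no further fall was seen in the heme library, where the intervals of day 5 (4.47 to 6.61) and day 7 (5.15 to 7.04) overlapped. In the control the level fell to 0.178 of day 5 by day 7, when 34 UMIs remained. The gene A430072P03Rik lies on the opposite strand over the start of Gfi1, and 0.387% of control cells and 1.80% of heme cells held a Gfi1 UMI on day 7 at 4000 UMIs.

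Of the monocyte factors Irf8 and Klf4, Irf8 followed another course. Irf8 (chr8:120736358-120756694, plus strand) encodes a factor that monocyte precursors and the Irf8-dependent DC subset need. Its level in the control cultures was 179, 48.0, 35.6, 76.4 and 169 CPM, and in the heme cultures 409, 40.4, 30.3, 51.2 and 58.0 CPM. Irf8 therefore fell first and returned late in the control, so that either day 0 or day 7 was its highest day depending on the scaling. It rose 2.15-fold from day 4 to day 5 and 2.22-fold from day 5 to day 7, and in the heme library the same steps were 1.69-fold and 1.13-fold. The annotated gene Gm20388 spans Irf8 on the same strand, and counts of Irf8 are those the authors' counting assigned to it.

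Klf4 (chr4:55527143-55532466, minus strand) encodes a zinc finger factor of the monocyte path. Its level was 30.5, 62.7, 34.1, 29.1 and 47.1 CPM in the control cultures and 71.7, 60.4, 27.2, 42.1 and 113 CPM in the heme cultures. Klf4 rose 2.69-fold from day 5 to day 7 in the heme library, where its day 7 level was the highest of all 10 cultures, and 1.62-fold in the control.

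Irf4 and Zbtb46 marked the late side of the control culture. Irf4 (chr13:30749226-30766976, plus strand) encodes a factor of DCs and of macrophages grown with GM-CSF. Its control level climbed at every harvest, from 3.12 CPM on day 0 to 31.6, 45.7, 59.8 and 91.8 CPM, a 29.4-fold difference from day 0 to day 7 that rests on 56 UMIs on day 0, where the highest free RNA gauge would give 1.84 CPM. The heme cultures held 5.53, 37.1, 24.1, 41.9 and 23.0 CPM, with day 4 and day 7 intervals that overlapped (22.3 to 26.0 and 21.3 to 24.9). Zbtb46 (chr2:181387762-181459426, minus strand) encodes a repressor found in classical DCs and their precursors and not in macrophages. It was counted at 7.81, 3.46, 5.44, 10.8 and 13.2 CPM in the control cultures and at 8.60, 3.96, 4.74, 6.24 and 3.11 CPM in the heme cultures, from 84 to 477 UMIs each. On day 0, 93.6% of the control and 71.4% of the heme Zbtb46 UMIs lay in erythroid-like cells, so the day 0 levels and the steps from them mostly read those cells. The intervals of the libraries overlapped on days 3 and 4 and no longer on days 5 and 7.

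Cebpb (chr2:167688915-167690418, plus strand) encodes C/EBPβ, which monocytes, macrophages and stress granulopoiesis use. It stood at 85.8, 746, 687, 607 and 600 CPM in the control cultures and at 96.8, 488, 615, 735 and 819 CPM in the heme cultures. The control thus peaked on day 3 and the heme library on day 7, and the libraries differed on day 3, at the time of addition, at a ratio of 0.654 (0.641 to 0.668). The gene Tmem189 overlaps its start on the opposite strand.

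**Figure D1:**
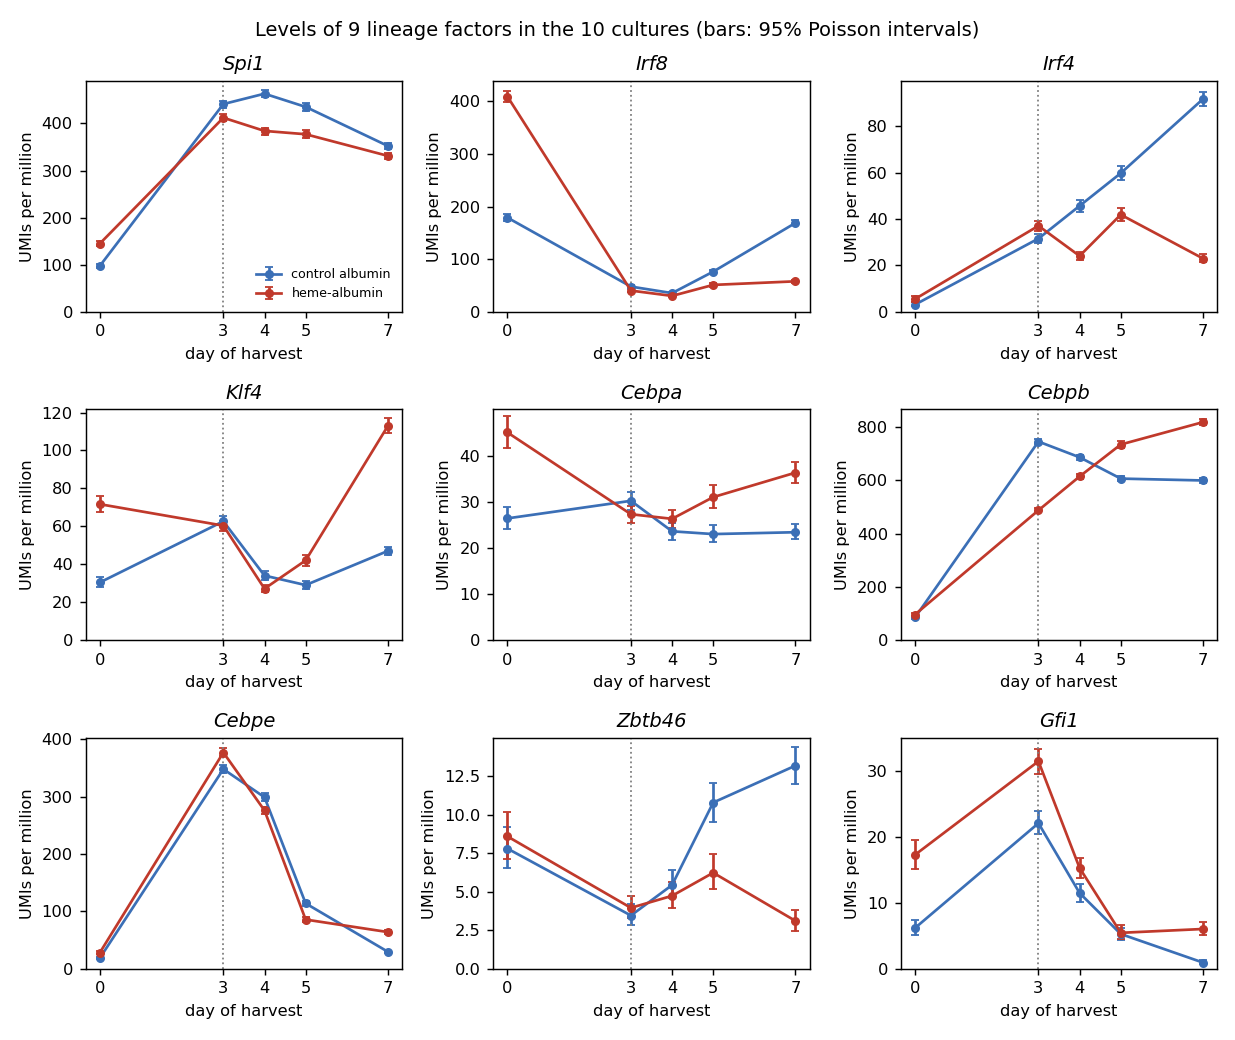
CPM of the 9 factors (y axes, each from 0) against day of harvest (x axes) in the control albumin and heme-albumin libraries, with 95% Poisson intervals as bars and a dotted line on day 3, when heme was added. Spi1, Cebpb and Cebpe are low on day 0 and high on day 3, and Irf8 is high on day 0 and low on day 4. Irf8, Irf4, Zbtb46 and Klf4 differ between the libraries on day 7, and Irf8 and Klf4 already differ on day 0.

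Read as steps, 6 of 9 members were 2-fold or more higher on day 3 than on day 0 in the control (Spi1, Cebpb, Cebpe, Irf4, Gfi1 and Klf4, 15.4% of all tested genes) and 2 were lower (Irf8 and Zbtb46, 17.4%). In the heme library 4 were higher (Spi1, Cebpb, Cebpe and Irf4, 10.8% of genes) and the same 2 lower (22.5%). From day 3 to day 4 none passed in the control (2.85% of genes higher and 0.641% lower), and in the heme library Klf4 and Gfi1 were lower (2.08%), with none higher (3.53%). From day 4 to day 5 Cebpe and Gfi1 were lower in both libraries (1.17% of genes in the control and 2.16% with heme), and Irf8 was higher in the control (3.16% of genes), with a ratio of 1.69 in the heme library (2.27% of genes higher). From day 5 to day 7 the control gained Irf8 (3.23% of genes higher) and lost Cebpe and Gfi1 (3.05%), and the heme library gained Klf4 (3.12%) and lost Zbtb46 (2.60%). From day 0 to day 7, Irf4, Cebpb and Spi1 were higher in the control (21.6% of genes, with Irf4 at 29.4-fold and Cebpb at 6.99-fold) and Gfi1 was lower (0.152 of the level, 24.6%). In the heme library Cebpb, Irf4, Spi1 and Cebpe were higher (8.46-fold, 4.17-fold, 2.28-fold and 2.26-fold, 16.1% of genes), though the day 0 levels of Cebpb (96.8 CPM), Irf4 (5.53) and Cebpe (28.3) were close to the 88.0, 4.22 and 29.6 CPM of the highest free RNA gauge, and Irf8, Gfi1 and Zbtb46 lower (0.142, 0.350 and 0.362 of the level, 26.6%). The course of the control was thus a rise of Spi1, Cebpb, Cebpe, Gfi1, Irf4 and Klf4 by day 3, a fall of Cebpe after day 4 and of Gfi1, which was already at 0.518 of its day 3 level on day 4 (0.450 to 0.595), and a return of Irf8 by day 7.

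Heme against control was compared day by day. On day 0, before any treatment, 3 of 9 members were 2-fold or more higher in the heme library (Irf8 2.29, Klf4 2.35 and Gfi1 2.79) and none lower, where 20.4% of all genes were higher and 0.995% lower. Without the erythroid-like cells none of the 8 members with enough UMIs was 2-fold higher, with Irf8 at 1.52, Klf4 at 1.63 and Gfi1 at 1.84, and with a limit of 30% ribosomal UMIs, which left 359 of 1613 control and 1118 of 1509 heme cells, Irf8 was at 0.915 and Klf4 at 0.701. On day 3 no member passed in either direction (4.99% of genes higher, 0.262% lower).

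On day 4, after 1 day with heme, no member passed the 2-fold limit (6.46% of genes higher, 2.47% lower). Irf4 stood nearest to it, at 24.1 against 45.7 CPM, which is 0.527 of the control (0.479 to 0.580), having stood at 1.17 on day 3. On day 5 no member passed either (6.39% of genes higher, 2.80% lower), with Zbtb46 at 0.580, Irf8 at 0.671 and Irf4 at 0.700.

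On day 7, 3 members were 2-fold or more lower with heme, where 6.07% of the 11012 genes tested were lower. Irf8 was at 58.0 against 169 CPM, a ratio of 0.343 (0.324 to 0.362). Irf4 was at 23.0 against 91.8 CPM, a ratio of 0.251 (0.230 to 0.274). Zbtb46 was at 3.11 against 13.2 CPM, a ratio of 0.236 (0.185 to 0.298). All 3 serve DCs, and all 3 had day 3 ratios near 1 (0.842, 1.17 and 1.14). Over the 8 other cell selections and scalings their day 7 ratios lay between 0.282 and 0.403, 0.207 and 0.285, and 0.194 and 0.308.

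Also on day 7, 3 members were 2-fold or more higher with heme, where 13.5% of genes were higher and the median gene stood at 1.22. Klf4 was at 113 against 47.1 CPM, a ratio of 2.40 (2.26 to 2.55), Cebpe at 64.0 against 29.6 CPM, a ratio of 2.16 (2.00 to 2.33), and Gfi1 at 6.04 against 0.941 CPM, a ratio of 6.42 (4.41 to 9.58). With the TMM factors of edgeR or the size factors of DESeq2 the split was 1 higher (Gfi1) and 3 lower in place of 3 and 3, and over the 8 cell selections and scalings Klf4 was no lower than 1.98 and Cebpe no lower than 1.43. The remaining members were Cebpa at 1.55, Cebpb at 1.36 and Spi1 at 0.940. Divided by the ratio of day 3, Klf4 came to 2.49, Gfi1 to 4.51, Cebpb to 2.09, Cebpe to 1.99, Cebpa to 1.71 and Spi1 to 1.01. Divided by the ratio of day 0 instead, Klf4 came to 1.02, Gfi1 to 2.30, Cebpb to 1.21, Cebpe to 1.44, Cebpa to 0.910 and Spi1 to 0.635, so that the Klf4 ratio of day 7 was close to that of day 0. The day 0 ratio of Klf4 depended on the cells kept, at 0.701 with the ribosomal limit, and its day 3 ratio was 0.964. The lower members stayed below 0.5 against either day, with Irf8 at 0.407 and 0.15, Irf4 at 0.214 and 0.142 and Zbtb46 at 0.206 and 0.214 for days 3 and 0.

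**Figure D2:**
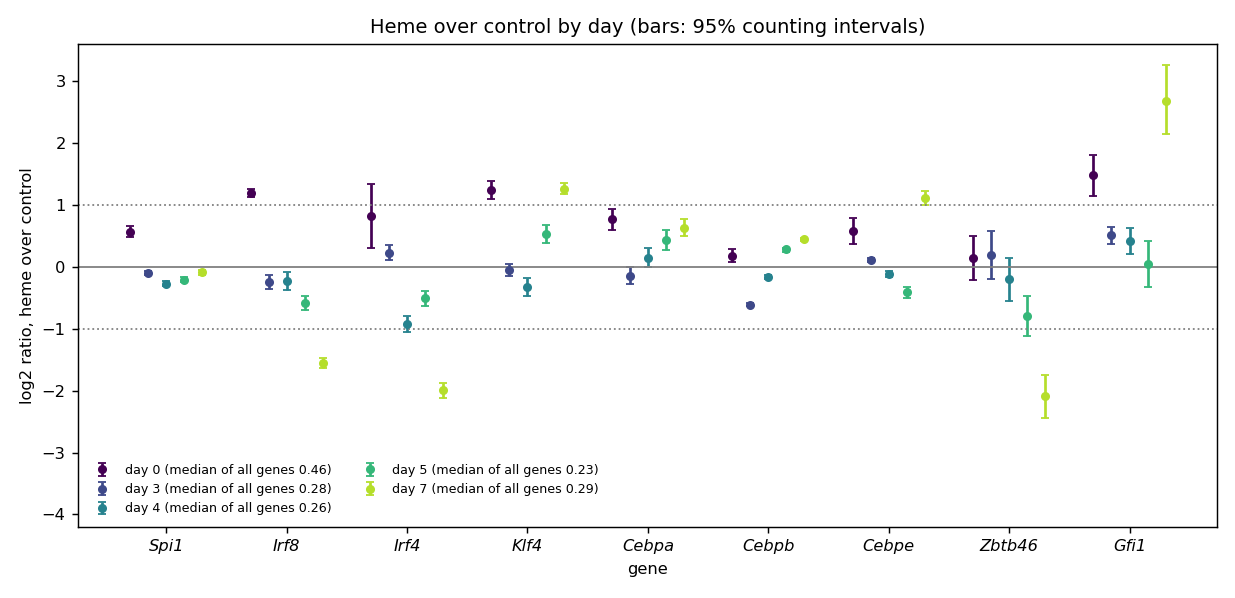
Log2 ratio of heme over control (y axis) for the 9 factors (x axis) on the 5 days, with 95% counting intervals as bars and dotted lines at 2-fold. The points of days 3, 4 and 5 stay within the dotted lines, and on day 7 Irf8, Irf4 and Zbtb46 lie below and Klf4, Cebpe and Gfi1 above them.

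Cells were grouped to see where the transcripts lay. Clusters were found without the members, the other listed factors and the heme, iron and oxidant response genes, and were joined by their leading genes. A cell type name was given only where its markers led, and the others are called by 2 leading genes. Over both libraries, Cebpe was highest in neutrophil-like cells led by Camp and Ngp (621 CPM) and in granulocyte-monocyte progenitor-like cells (398 CPM), and Gfi1 in the latter (62.3 CPM, above 27.0 in the mostly day 0 cells led by Mpo and Ms4a6c, whose interval overlapped with the 26.8 of the Camp Ngp cells). Irf8 was highest in the mostly day 0 cells led by Mpo and Ms4a6c (865 CPM), followed by dendritic cell-like cells, led by Ccl5, Ccr7 and Fscn1 (474 CPM), and the mostly day 0 cells led by Mpo and Cd34 (430 CPM), and stood at 3.85 CPM in the Camp Ngp cells.

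Klf4 shared its highest place with Irf8, at 211 CPM in the Mpo Ms4a6c cells, and came next in cells led by Vcan and Ccr2 and in cells led by Marco and Spic. Nearly all Marco Spic cells were of the heme library (1497 of 1502), and there Klf4 was at 140 CPM (135 to 145) in them and at 160 CPM (154 to 166) in the Vcan Ccr2 cells, which stood at 124 CPM in the control. In dendritic cell-like cells Klf4 was at 5.74 CPM. Irf4 was highest in cells led by Ccl17 and Mgl2 (123 CPM), above dendritic cell-like cells and cells led by Mt3 and Ppbp (both 111 CPM). Zbtb46 was highest in dendritic cell-like cells (27.6 CPM) and the Ccl17 Mgl2 cells (21.0 CPM). It was also read at 16.5 CPM in erythroid-like cells, from 226 UMIs, where Irf4 was at 1.38 CPM and Gfi1 at 0.801 CPM. At 4000 UMIs, 6.27% of control and 9.09% of heme erythroid-like cells held a Zbtb46 UMI, against 4.34% of all control cells on day 7. Cebpb was highest in cells led by Clec4d and Ccl6 (1588 CPM) and among the lowest in dendritic cell-like cells (60.6 CPM). Cebpa was highest in basophil or mast cell-like cells (222 CPM), and Spi1 in the Ccl17 Mgl2 cells (508 CPM), with the neutrophil-like and Vcan Ccr2 cells between 400 and 416 CPM and the erythroid-like cells at 18.0 CPM.

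**Figure D3:**
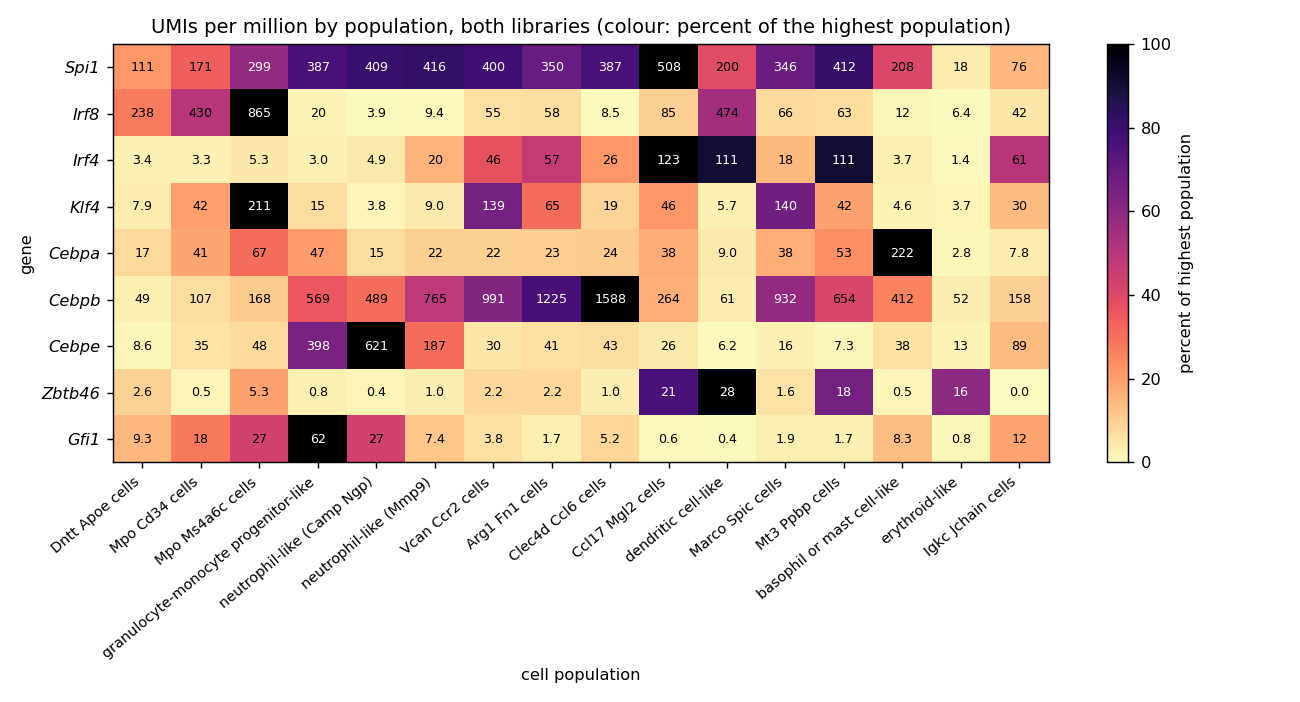
Level of each factor (rows) in 16 cell populations (columns) over both libraries and all days, printed as CPM and coloured as percent of the factor's highest population. Irf8 is dark in day 0 and dendritic cell-like cells, Cebpe and Gfi1 in granulocyte cells, Klf4 in the Mpo Ms4a6c, Vcan Ccr2 and Marco Spic cells, and Irf4 and Zbtb46 in the Ccl17 Mgl2 and dendritic cell-like cells.

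The populations of day 7 differed between the libraries. Dendritic cell-like cells were 594 of 2856 control cells, 20.8% (19.3% to 22.3%), and 40 of 2016 heme cells, 1.98% (1.42% to 2.69%). Ccl17 Mgl2 cells were 999 control and 2 heme cells, cells led by Arg1 and Fn1 were 819 and 3, and Marco Spic cells were 0 control and 1161 heme cells (0 of 2856, with a limit of 3 cells, allows a share of up to 0.105%). Neutrophil-like cells were 14 and 33 of the control and 151 and 323 of the heme cells, in the Camp Ngp and Mmp9 groups. These sizes are given to read the shares below, since the clusters follow genes that differ between the libraries. A population held by 1 library may reflect that library. The sizes count only the cells kept, and the upper limit on detected genes removed more heme than control cells. Sizes without that limit are not given.

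The members drew their UMIs from different cells in the 2 libraries. In the control on day 7 the dendritic cell-like cells held 67.7% of the Irf8 UMIs and 19.7% of all UMIs, and the Ccl17 Mgl2 cells held 57.3% of the Irf4 and 62.9% of the Zbtb46 UMIs and 43.5% of all. The Ccl17 Mgl2 cells had no cell type name, with 3 macrophage markers raised (C1qa, C1qb and C1qc) and 1 DC marker. In the heme library the Marco Spic cells held 84.8% of the Klf4 and 74.8% of the Irf8 UMIs and 66.6% of all UMIs. The Camp Ngp cells, 7.09% of the heme UMIs, held 61.8% of the Cebpe and 53.4% of the Gfi1 UMIs.

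Leaving a population out of both libraries showed which day 7 ratios went with it. Without dendritic cell-like cells the Irf8 ratio was 0.819 instead of 0.343, while Irf4 was at 0.220 and Zbtb46 at 0.211. The Ccl17 Mgl2 cells, with most of the control Irf4 and Zbtb46 UMIs, and the Arg1 Fn1 cells were not left out. Whether the Irf4 and Zbtb46 ratios went with those cells was not tested. Leaving a population out was chosen after the data were seen. Without the neutrophil-like cells the Cebpe ratio was 0.651 instead of 2.16, and Gfi1 was at 2.93 from fewer than 100 UMIs. Without the Marco Spic cells the Klf4 ratio was 1.09 instead of 2.40 and Cebpb was at 1.10 instead of 1.36.

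**Figure D4:**
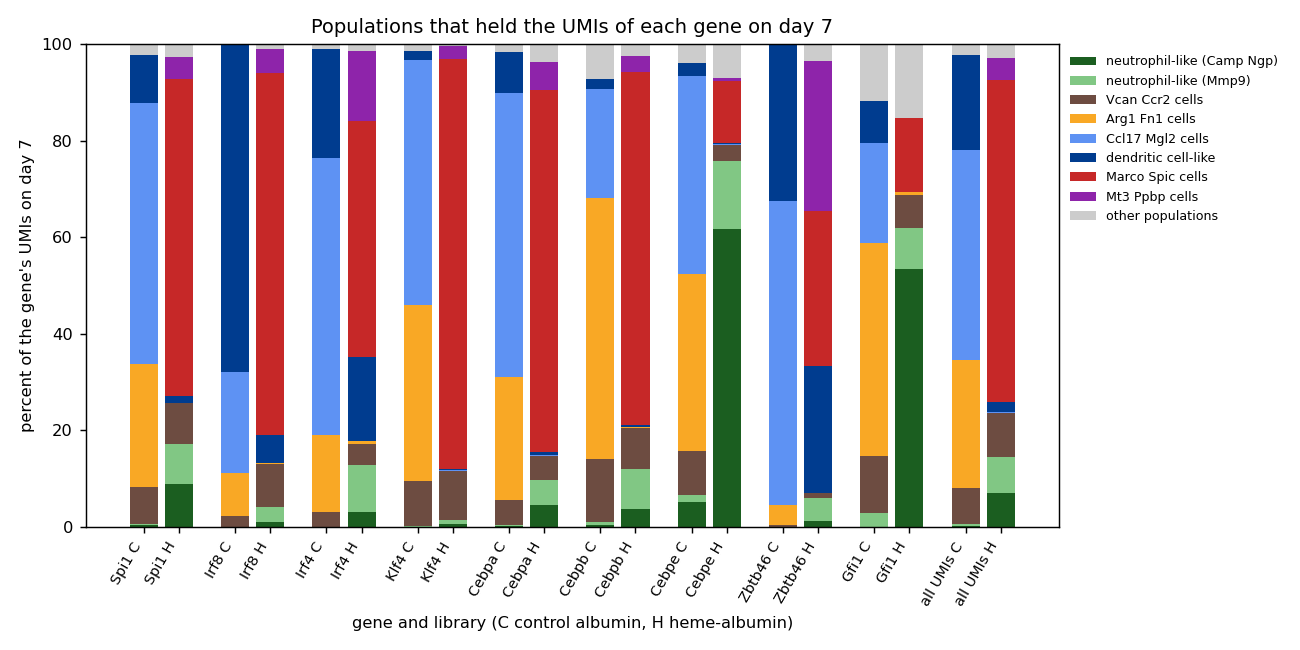
Percent of the UMIs of each factor (y axis) that each cell population held on day 7, for the control (C) and heme (H) library, with all UMIs at the right. Dendritic cell-like cells hold most of the control Irf8 UMIs (67.7%), Marco Spic cells most of the heme Klf4 UMIs (84.8%) and Camp Ngp neutrophil-like cells most of the heme Cebpe UMIs (61.8%).

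Within populations present in both libraries the members differed as well. In dendritic cell-like cells Irf8 was lower with heme on each day with enough cells, at 0.688 of the control on day 4 (0.587 to 0.806, 51 heme and 45 control cells), 0.483 on day 5 (0.429 to 0.542, 99 and 157 cells) and 0.268 on day 7 (0.215 to 0.330, 40 and 594 cells). In the same cells Irf4 was higher, at 1.61, 2.17 and 1.77 on days 4, 5 and 7, and Zbtb46 was at 1.62 on day 5 (1.13 to 2.34, 68 heme and 60 control UMIs) and at 1.73 on day 7 (1.05 to 2.72, 22 and 155 UMIs). On day 4 Zbtb46 had 50 heme and 9 control UMIs in these cells, too few to compare. The few dendritic cell-like cells of the heme library thus had less Irf8 and more Irf4 in CPM than those of the control, opposite for Irf4 to the whole culture. On day 3 the Ccl17 Mgl2 cells of the heme library already had Irf4 at 1.83 (1.59 to 2.11) and Zbtb46 at 1.52 (1.07 to 2.16) of the control, the day of addition.

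In the Vcan Ccr2 cells, which both libraries held on every day from day 3, Irf4 was close between the libraries at the start, while Cebpb was at 0.701 (0.680 to 0.721) and Spi1 at 0.911 (0.872 to 0.952). Irf4 was at 1.08 of the control on day 3 (0.957 to 1.21), then at 0.240 (0.132 to 0.405) on day 4, 0.314 (0.204 to 0.468) on day 5 and 0.288 (0.182 to 0.443) on day 7. Klf4 in these cells was at 1.10, 1.11, 1.74 and 2.17 on the same days, and Irf8 at 1.12, 1.45, 1.12 and 1.17. The lower Irf4 was therefore present in these cells 1 day after heme, when the whole culture was at 0.527. The Vcan Ccr2 cells join clusters whose mix differed, on day 4 with 184 and 121 control and 40 and 66 heme cells. On that day 110 Mt3 Ppbp cells of the heme library held 39.6% of its Irf4 UMIs, at 129 CPM. Whether cells with high Irf4 fell into another group was not tested. In the neutrophil-like cells led by Camp and Ngp, Cebpe was lower with heme, at 0.860 on day 3, 0.705 on day 4 and 0.649 on day 5. These cells join 3 clusters whose mix differed, on day 5 with 128, 75 and 78 control cells and 16, 38 and 81 heme cells.

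Detection of the members in the same cells was compared after thinning to 4000 UMIs. On day 3 of the control, Cebpe was detected in 10.1% of the 198 cells with Irf8 (6.28% to 15.2%) and in 55.9% of the cells without it (53.5% to 58.3%), and the heme library gave 18.0% and 60.8%. Gfi1 and Cebpe were found together more often, with Gfi1 in 11.2% of control cells with Cebpe (9.30% to 13.4%) and in 3.50% of those without (2.41% to 4.91%). Irf8 and Klf4 went together early. On day 0 of the control Klf4 was detected in 30.6% of cells with Irf8 and in 1.34% of those without. On day 7 it was in 8.34% of control cells with Irf8 (6.55% to 10.4%) and in 15.2% without (13.6% to 17.0%), and in the heme library in 38.0% with (32.8% to 43.5%) and in 29.1% without (26.8% to 31.5%).

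The shares of cells at equal depth went the same way as the culture levels. On day 7 Irf8 was detected in 32.0% of control and 18.2% of heme cells (unthinned 49.6% and 43.3%), Irf4 in 28.0% and 8.30% (unthinned 52.6% and 20.0%), and Klf4 in 336 of 2583 control and 563 of 1831 heme cells (unthinned 29.5% and 53.5%). The intervals of these pairs did not overlap, and 273 control and 185 heme cells were left out as too shallow. Erythroid-like cells gave 0.433% to 1.37% for Irf8, 0% to 0.392% for Irf4 and 0.980% to 1.30% for Klf4.

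Other factors of the branches were counted on day 7 with lists chosen with results of these data known, to be read against the 13.5% of all genes that were higher and the 6.07% that were lower. Of 15 other DC factors, 8 were 2-fold or more lower and 1 higher (median log2 ratio -1.01, where the median of all genes was 0.29), among them Stat4, which carries interleukin 12 signals, at 0.0687, Relb, a subunit of the alternative NF-κB path, at 0.362 and Irf7, an interferon response factor, at 0.371, while Batf was at 2.04. Of 17 other monocyte and macrophage factors, 7 were higher and 3 lower. Spic, the ETS factor that red pulp macrophages need, was at 104 against 0.138 CPM (2803 and 5 UMIs, ratio 750, 321 to 2313), Nr1h3, which encodes the sterol receptor LXRα, was at 6.32 and Maf at 4.68, and those lower included Bhlhe40 at 0.311 and Irf5 at 0.417. Of 9 genes listed as other granulocyte factors 3 were higher, the clock gene Per3 at 3.58, the MYC antagonist Mxd1 at 2.36 and Cebpd at 2.34. The 2 lower ones, Runx3 at 0.181 and Spib at 0.0392, are both also known from DCs, so they do not speak for granulocytes alone. Of 11 progenitor factors with enough UMIs, out of 14, 4 were higher and 0 lower, led by Erg (7.96), Myb (3.35) and Tal1 (2.62). On day 3, at the addition of heme, Spic was already at 2.37, Mxd1 at 2.28 and Erg at 2.01. The day 3 ratios of the other factors named here lay between 0.737 (Batf) and 1.64 (Irf7).

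Genes known as targets of the factors were counted against the shares of all genes, which on day 7 were 13.5% higher and 6.07% lower. Of 6 secondary granule and related genes that C/EBPε serves, 5 were higher with heme on day 7, with Ngp at 20.3, Ltf at 14.6 and Camp at 8.17, and 3 of 4 primary granule genes were higher, with Mpo at 4.17, Elane at 2.73 and Prtn3 at 2.56. The earlier days went otherwise. Of the 4 primary granule genes, 3 were lower on day 3 (0.262% of all genes), 4 on day 4 (2.47%) and 3 on day 5 (2.80%). On day 4 Elane was at 0.146 and Prtn3 at 0.216. Of the 6 genes that C/EBPε serves 5 were also higher on day 0, before heme (20.4% of all genes). On day 3 (4.99% of genes) and day 4 (6.46%) 0 were higher. On day 5, 2 of the 6 were higher (6.39% of all genes) and 1 was lower (2.80%), Camp at 0.407. Of 8 PU.1 targets 2 were higher on day 7, Csf3r, the receptor of the neutrophil cytokine G-CSF, at 9.51 and Cybb, a subunit of the phagocyte oxidase, at 2.43, and 0 were lower. On day 3 Csf3r was already at 1.91 and Cybb at 1.94. On day 0, 6 of the 8 were 2-fold or more higher, where 20.4% of all genes were.

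The 2 genes with the course most like each member over the 10 cultures were taken by Pearson's r of log2(CPM + 1) among 9612 genes, as a description of cultures that share libraries. Irf4 was nearest to Bcl2a1d and Ciita (both r = 0.99), the latter the master factor of MHC class II genes, and Irf8 to Faap100 (0.99) and H2-Q4 (0.98). Zbtb46 was nearest to H2-T23 and Tmem176a (both 0.96), Klf4 to Plxnb2 (0.93) and Zcchc24 (0.90), and Cebpb to Arpc1b and Atp6v0d1 (both 0.99). Cebpe was nearest to Tnnt1 (0.99) and 4930438A08Rik (0.98), Gfi1 to Impa1 (0.99) and Cntrl (0.97), Spi1 to Plau and Rgs14 (both 0.99) and Cebpa to Synj2bp (0.95) and Arhgap17 (0.94). By rank correlation 2 of these 18 genes stayed among the nearest.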

How the data were processed

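Per the labels, the authors made UMI counts per gene and barcode from 10x 3′ v3.1 libraries with Cell Ranger 4.0.0 (the matrix header names 5.0.0) on GRCm38.p6, and gave hashtag calls made with Seurat 3.2.3. R 4.4 and Scanpy 1.6.0 are also named. The deposited counts were used as raw counts, with days as in the labels. The series' design text gives other exposure times.

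Singlet barcodes with 500 to 5000 detected genes and under 15% mitochondrial UMIs were kept, with no ribosomal limit. Doublets within a day carry 1 hashtag and could not be removed. Counts were summed per library and day, and a gene was compared with 100 or more UMIs in the pair of cultures compared. Higher means a CPM ratio of 2 or more, lower 0.5 or less. Intervals are exact at 95%. For shares of cells, each cell was thinned to 4000 UMIs.

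Clusters (scanpy 1.11.5, leidenalg 0.10.2, 2000 variable genes, 15 principal components, 15 neighbours, resolution 1) were named where 3 markers of a fixed list were raised, a rule set after the clusters were seen. Positions come from GENCODE M21 and promoters from RefSeq tables, where 7 of the 9 members matched (not Spi1 and Cebpe). edgeR 4.0.16 and DESeq2 1.42.0 gave scaling factors only. The members, lists and named genes (per list up to 3 with the highest and 3 with the lowest day 7 ratio past 2-fold) were chosen with earlier results of these data known. The code was tested on simulated data. A listed gene is not reported here.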

Additional observations from a re-analysis of the deposited data

Results flagged for a closer look

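The direction of heme against control turned between days 4, 5 and 7 for 3 members, and these turns were not tested, since each day has 1 culture per library. Klf4 was at 0.798 of the control on day 4, at 1.45 on day 5 and at 2.40 on day 7. Cebpb was at 0.896 on day 4, 1.21 on day 5 and 1.36 on day 7. Cebpe was at 0.923 on day 4, 0.751 on day 5 and 2.16 on day 7. Over the 8 other cell selections and scalings, Klf4 on day 4 ran from 0.660 to 1.20 and was above 1 in 2, Cebpb on day 4 ran from 0.741 to 1.02 and was above 1 in 2, and Cebpb on day 5 ran from 0.894 to 1.31, so the turns of Klf4 and Cebpb depend on the setting.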

How the results depend on the processing

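No paired analysis was possible because each treatment has 1 library and each day 1 culture per library. The 4 exclusions of cell populations were chosen after seeing the data, and apart from settings that change only the limit or the cells kept, the cause of a moved count was not tested. Counts below are of members past the limit. At a 1.5-fold limit, heme against control had 5 higher on day 0 (3 at 2-fold) and 1 lower on each of days 3, 4 and 5 (0). In the control, day 4 against 3 had 1 higher and 2 lower (0 and 0), day 5 against 4 had 2 higher (1), day 7 against 5 had 3 higher (1) and day 7 against 0 had 6 higher (3), and with heme day 5 against 4 had 3 higher (0) and day 7 against 5 had 2 lower (1). With DESeq2 size factors or TMM factors, heme against control had 1 higher on day 0 and 1 on day 7 (3 and 3) and 1 lower on days 4 and 5 (0), day 3 against 0 had 1 lower in each library (2), heme day 4 against 3 had 1 lower (2), and with TMM control day 5 against 4 had 0 higher (1). With UMIs per cell, day 4 had 1 lower (0), day 3 against 0 had 1 lower in each library (2), control day 4 against 3 had 2 lower (0), control day 5 against 4 had 0 higher (1) and heme day 7 against 5 had 0 lower (1). With all Singlet barcodes, or no upper limit on genes, day 0 had 1 higher (3), day 5 had 1 lower (0), control day 5 against 4 had 0 higher (1), heme day 4 against 3 had 1 lower (2) and heme day 7 against 5 had 0 higher (1). Divided by the day 3 ratio, day 4 had 1 lower (0). With equal weight of cells, day 0 had 1 higher (3), control day 3 against 0 had 1 lower (2), day 4 against 3 had 1 lower (0), day 5 against 4 had 0 higher and 1 lower (1 and 2), day 7 against 5 had 2 higher (1), day 7 against 0 had 2 lower (1), and heme day 7 against 5 had 0 lower (1). Without ribosomal and mitochondrial genes in the totals, day 4 had 1 lower (0), control day 4 against 3 had 1 lower (0), control day 5 against 4 had 2 higher (1), heme day 7 against 5 had 0 lower (1) and heme day 7 against 0 had 2 higher (4). With the ribosomal limit, day 0 had 1 higher (3), control day 7 against 0 had 4 lower (1) and heme day 7 against 5 had 0 lower (1). Without erythroid-like cells day 0 had 0 higher (3), and without neutrophil-like cells day 7 had 1 higher (3). Of the other counts, 283 stayed within 1.5 times. Of ratios past 2-fold, those that crossed 1 were Irf8 at 0.915 and Klf4 at 0.701 on day 0 with the ribosomal limit, Cebpe at 0.651 on day 7 without neutrophil-like cells, and Irf4 in neutrophil-like cells on day 7 at 0.401 with clusters at resolution 0.5. Ratios nearer 1 crossed it more often over the 8 cell selections and scalings, Cebpb on day 0 in 7 (0.667 to 1.05), Gfi1 on day 5 in 5 (0.856 to 1.02) and Irf8 on day 4 in 2 (0.706 to 1.13), so the direction of such ratios is not settled. The day of the highest level moved in 20 combinations of member, library and setting and stayed in 124, moving among others for Irf8 in the control, to day 7 with TMM factors, size factors or UMIs per cell, and Zbtb46 in the control, to day 5 with all Singlet barcodes or no upper limit. Depth limits Gfi1, Irf4 and Zbtb46 most, with 34, 56 and 84 UMIs in their lowest cultures.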
